A study of Mus musculus with 2 samples.

Results

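In a late-passage culture of telomerase-deficient mouse embryonic stem cells, 355 of 900 cells carried 2 or more UMIs of Klf4, Nanog, Esrrb and Tbx3 in sum. A UMI (unique molecular identifier) stands for 1 captured RNA molecule. These naive-factor high cells, called members here, were 39.4% of the culture (36.2–42.7%, exact binomial interval). The 4 measured values chose the members, so the factors themselves are described and not compared. Members were set beside the 315 cells with 0 UMIs of the 4 factors, at matched depth. The 230 cells with exactly 1 UMI lay between and entered neither side. The whole series held 1714 cells after filtering.

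Both cultures came from the cell line DKO741, E14 mouse embryonic stem cells in which both Terc alleles were targeted. The control time point therefore carries the Terc knock-out too. The members came from the culture at PD800, a survivor that maintains its telomeres by alternative lengthening of telomeres (ALT). The other culture was the same line at PD100. Each time point was 1 library of 1 clonal line, so the effects of library and of time point cannot be told apart. The line was kept on mouse fibroblast feeders, while cells for experiments were feeder-free. With 1 library per time point there was no replicate, and no p-value or standard error was computed. Every interval below is at 95% and covers counting error only.

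Naive pluripotency is the ground state of mouse embryonic stem cells and resembles the epiblast of the embryo before implantation. Klf4 is a zinc-finger factor downstream of LIF and STAT3. Nanog is a homeobox factor that stabilises self-renewal, Esrrb is an orphan nuclear receptor downstream of Nanog and of WNT signalling, and Tbx3 is a T-box factor linked to PI3K signalling. In embryonic stem cells these factors are known to vary from cell to cell, and a cell that holds little of one can regain it. A core of Pou5f1 and Sox2 varies less.

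The filter asked for at least 1000 UMIs per barcode and at most 20% of UMIs in mitochondrial genes. It left 900 of 1666 barcodes at PD800 and 814 of 1291 at PD100. Median depth was 2701.5 and 2151 UMIs per cell. The median mitochondrial share was 4.42% at PD800 and 1.23% at PD100. The libraries shared 21 barcode names, 8 of them among the cells kept. Terc, the targeted gene, had 0 UMIs in members and in the matched cells. Its RNA has no stable poly(A) tail, so this does not check the knock-out.

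Members were the deeper cells. Median depth was 2182 UMIs in cells with 0 factor UMIs, 2666.5 with 1 and 3127 in members. Just outside the threshold stood the 230 cells with 1 factor UMI, and just inside it the 172 cells with exactly 2, whose median depth was 2943.5 UMIs. A further 88 cells had 3 and 95 had 4 or more, up to 10. If every UMI of the library had had the same chance of being a factor UMI, 366.3 cells would have reached 2, against the 355 observed. The same single rate gave 250.0 cells with 0 against 315 observed, 283.7 cells with 1 against 230, and 74.0 with 4 or more against 95. The distribution was therefore wider than a single rate at its ends, while the number of members was close to it. When every cell was thinned to 1000 UMIs, 93 cells had 2 or more. At PD100 the same rule chose 86 of 814 cells (10.6%), against 62.3 at a single rate.

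**Figure D1:**
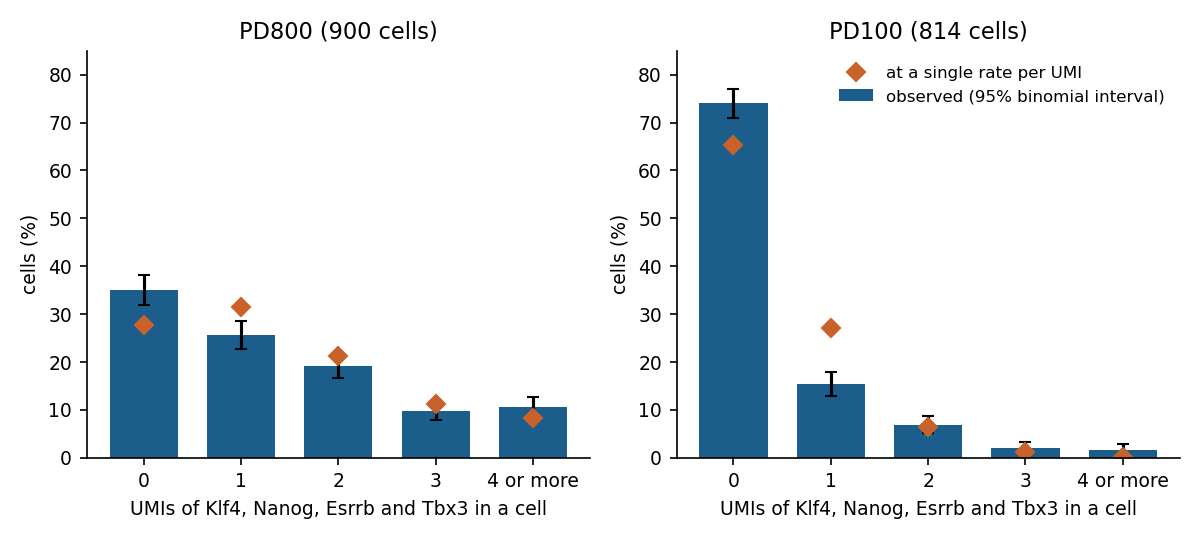
Share of cells (%) by the summed UMIs of Klf4, Nanog, Esrrb and Tbx3 in a cell, at PD800 (left) and PD100 (right). Bars are observed shares with exact binomial 95% intervals and diamonds the shares at a single rate per UMI. At PD800 35.0% of cells had 0 and 25.6% had 1, and at PD100 74.1% had 0.

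Klf4 contributed most to the choice. It had 566 UMIs at PD800 and was seen in 36.2% of cells (17.4% after thinning to 1000 UMIs). Of the 355 members, 236 had a Klf4 UMI, and 71 were members through Klf4 alone. Nanog had 368 UMIs, in 26.1% of cells (10.4% thinned). It was present in 169 members, and 36 qualified by Nanog alone. Esrrb had 230 UMIs, in 19.0% of cells (7.78% thinned), with 125 members holding it and 20 qualifying by it alone. Tbx3, with 145 UMIs, was seen in 12.1% of cells (4.67% thinned), in 81 members and alone in 16. For comparison with another cell type, 38 cells of the PD100 library held 10 or more UMIs of the extraembryonic endoderm markers, at a median depth of 2314 UMIs. Klf4 was seen in 8 of those 38 cells (21.1%), Tbx3 in 2 (5.26%), and Nanog and Esrrb in 1 each (2.63%). By the same rule 2 of the 38 would be members (5.26%, 0.644–17.7%). The Klf4 share there was above that of all PD100 cells (9.95%), while the Nanog and Esrrb shares were below those of all PD100 cells (10.9% and 5.53%). These cells therefore give no background for Klf4, and being of the other library they do not measure free RNA at PD800.

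In GRCm38, with GENCODE M21 gene models, Klf4 lies on chromosome 4 (55527143–55532466, minus strand) and Nanog on chromosome 6 (122707489–122714633, plus strand). Esrrb lies on chromosome 12 (86361117–86521628, plus strand) and Tbx3 on chromosome 5 (119670669–119684724, plus strand). All are protein-coding, and UMIs were assigned to whole genes. No column was named as a pseudogene copy of any of them.

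Few members held many factors. Of the 355, 143 (40.3%) had UMIs of 1 factor, 171 (48.2%) of 2, 38 (10.7%) of 3 and 3 (0.845%) of all 4. Whether factors shared cells beyond depth was described by sorting the cells into 20 depth bins and multiplying the shares of each pair within a bin. Klf4 and Nanog were found together in 96 cells, against 94.4 from their shares. Klf4 and Esrrb shared 72 cells against 67.5. Nanog and Esrrb, which bind each other in stem cells, shared 42 against 49.0. Klf4 and Tbx3 shared 36 against 43.0, Nanog and Tbx3 32 against 31.1, and Esrrb and Tbx3 25 against 21.8. Over the 6 pairs the sum was 303 against 306.8, with ratios from 0.838 to 1.15. Each of the 6 products lay inside the counting interval of its pair, so no pair shared more or fewer cells than its shares at a detectable size.

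At PD100 the same count gave 46 shared cells against 30.7 from the shares, and all 6 pairs lay above them, with ratios from 1.10 to 1.92. Nanog and Esrrb shared 10 cells against 5.35. Each pair rested on 4 to 13 cells, and the interval of Nanog and Esrrb alone was 4.80–18.4 cells. The cultures also differ in their makeup: the 38 PD100 cells with 10 or more endoderm marker UMIs hold few Nanog or Esrrb UMIs, and their part in the PD100 ratios was not tested.

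**Figure D2:**
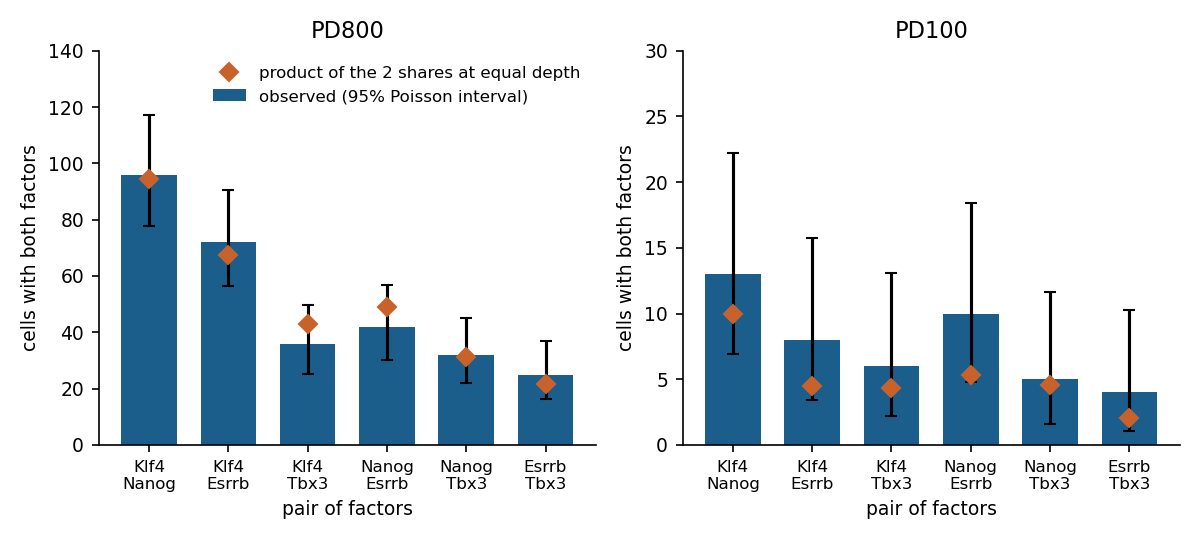
Number of cells with both factors of each pair at PD800 (left) and PD100 (right). Bars are observed cells with exact Poisson 95% intervals and diamonds the product of the 2 shares within 20 depth bins. At PD800 the bars sum to 303 cells against 306.8, and at PD100 to 46 against 30.7.

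A second view chose cells by 3 factors and read the fourth, which took no part in the choice. Among cells chosen by Nanog, Esrrb and Tbx3, Klf4 had 121 UMIs in 184 cells, and 121 UMIs in 184 depth-matched cells without the 3 (log2 ratio −0.01, −0.38 to 0.37). Nanog stood at 160 CPM (counts scaled to the same total of UMIs on each side) in 250 cells chosen by the others against 147 CPM, a log2 ratio of 0.12 (−0.26 to 0.49). For Esrrb the log2 ratio was −0.47 (−0.9996 to 0.05), from 56 UMIs against 72. For Tbx3 it was −0.45 (−1.10 to 0.19), from 38 UMIs against 48. None of the 4 intervals left out 0, and the highest upper end was 0.49. After thinning to 1000 UMIs before the choice the log2 ratio was −0.71 for Klf4, 0.04 for Esrrb and 0.44 for Tbx3, so the signs for Esrrb and Tbx3 turned, and Klf4 moved further below 0.

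At PD100 all 4 log2 ratios were above 0. Nanog had 20 UMIs in the chosen cells and 7 in the matched cells, a log2 ratio of 1.51 (0.21 to 2.99). Klf4 had 19 against 8 (1.24, −0.02 to 2.64), Esrrb 8 against 3 (1.41, −0.65 to 3.96) and Tbx3 8 against 4 (0.99, −0.91 to 3.18). The difference between the cultures was not tested, since each is a single library. The same threshold also chose fewer cells at PD100, so the chosen cells are unlike groups.

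**Figure D3:**
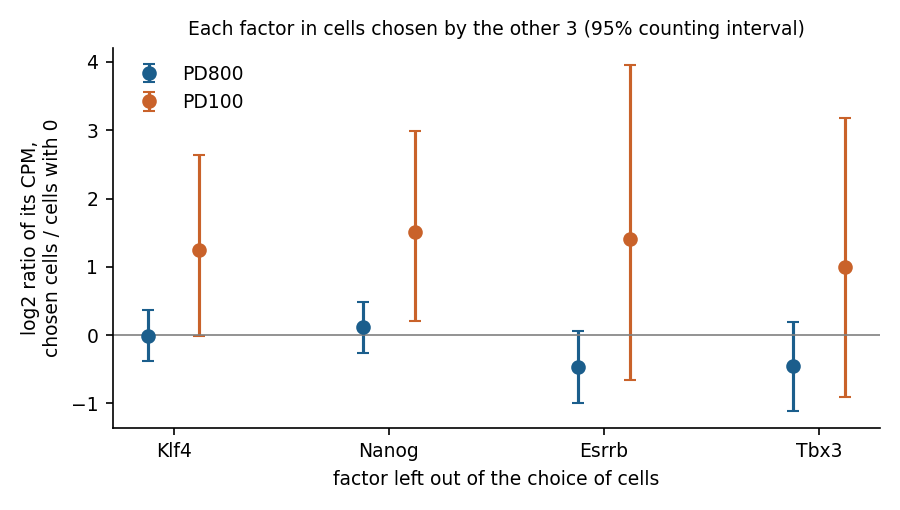
Log2 ratio of the CPM of each factor in cells chosen by the other 3 factors (2 or more UMIs) over depth-matched cells with 0, at PD800 and PD100. Points are ratios and bars exact conditional 95% intervals for counting error. The PD800 points lie between −0.47 and 0.12, and the PD100 points between 0.99 and 1.51.

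For all other genes, members were matched 1 to 1 with cells holding 0 factor UMIs, within 10% of their total. This kept 233 members on one side and 233 cells on the other. The other 122 members were deeper, with a median of 3944.5 UMIs, and had no partner. Matching was not exact: median depth was 2764 UMIs in members and 2498 in the matched cells. The median mitochondrial share was 4.56% and 4.32%. Scrublet called 8 of 233 members and 3 of 233 matched cells as doublets, and before matching 17 of 355 members (4.79%) and 3 of 315 cells with 0 (0.952%). Without those cells the median log2 ratio of the other naive genes, described below, was 0.14 in place of 0.12.

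The rest of the transcriptome was nearly level. Of 3397 genes with 50 or more UMIs over both sides, 165 (4.86%) were at least 1.5-fold higher in members and 145 (4.27%) at least 1.5-fold lower. Most of these were scarce genes. Among genes with 50 to 100 UMIs, 126 were higher and 117 lower of 1349 (18.01%). Among the 654 genes with 200 to 500 UMIs only 3 were higher and 1 lower (0.612%), and among the 490 genes with 500 or more UMIs there was none. The 4 abundant genes past the fold were Urah (log2 ratio 0.76, 0.38 to 1.14), Rab14 (0.69, 0.31 to 1.07) and Ift20 (0.67, 0.26 to 1.09), which were higher, and Hmces (−0.66, −1.06 to −0.28), which was lower. Urah turned to −0.11 against cells with 1 factor UMI and to −0.23 without Klf4 in the rule. Urah encodes an enzyme of uric acid breakdown, Rab14 a small GTPase of membrane traffic, Ift20 a ciliary transport subunit and Hmces a sensor of abasic DNA sites. The share of past-fold genes over all genes is the background against which the lists below are read.

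**Figure D4:**
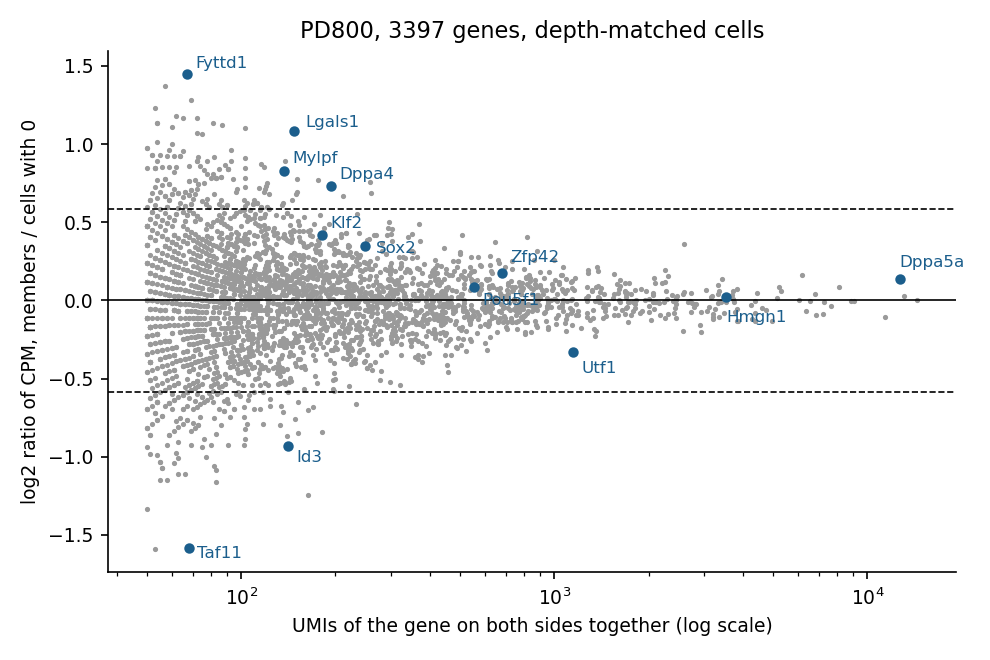
Log2 ratio of CPM (members over depth-matched cells with 0 factor UMIs, PD800) against the UMIs of each gene on both sides together, on a log axis, for 3397 genes. Dashed lines mark 1.5-fold. The spread narrows with depth, Dppa5a lies at 0.13 and Utf1 at −0.33.

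Other naive pluripotency genes differed little. Of 21 listed, 11 had 50 or more UMIs. Of these 1 was at least 1.5-fold higher and none lower, and 7 had a log2 ratio above 0. The median log2 ratio was 0.12, against 0.005 over all 3397 genes, of which 4.86% were at least 1.5-fold higher. The name naive-factor high is therefore used for the rule alone and not for a naive state. Dppa5a, an RNA-binding protein restricted to pluripotent and germ cells, was the most abundant. It had 6884 UMIs in members and 5809 in matched cells, or 10074 against 9181 CPM (log2 ratio 0.13, 0.08 to 0.18). Per cell its level ran from 0 through a median of 9717 to 22852 CPM in members, and from 0 through 8910 to 27735 CPM in matched cells, so the sides overlapped almost wholly.

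Mylpf was the 1 naive-list gene past the fold. It had 90 UMIs in members and 47 in matched cells (log2 ratio 0.83, 0.30 to 1.37), and it encodes a myosin light chain better known from muscle. Klf2, a Klf4 relative with overlapping roles in self-renewal, stood at 157 against 117 CPM (0.42, −0.02 to 0.87). Klf5 was at 0.31 (−0.24 to 0.87). Zfp42, also called Rex1 and a classical marker of naive cells, had 375 UMIs against 307 (0.18, −0.04 to 0.40). It ranged from 0 to 11 UMIs in single members and from 0 to 6 in matched cells, with a median of 1 in both. Spp1, which encodes osteopontin, lay at 0.12 (−0.05 to 0.29). Tdh, a threonine catabolism enzyme of embryonic stem cells, lay at 0.03, and Tcl1, a co-activator of AKT, at −0.03. Below 0 were Nr0b1 (−0.21, −0.61 to 0.20), an orphan receptor, Jam2 (−0.40, −1.002 to 0.19), a junction protein, and Fbxo15 (−0.54, −1.21 to 0.13), an F-box gene used as a reporter of pluripotency. Other naive regulators were too scarce to read. Tfcp2l1 had 18 UMIs against 22, Nr5a2 12 against 16, Prdm14 2 against 3 and Dppa3 3 against 0.

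Among core pluripotency genes 1 of 15 was at least 1.5-fold higher, none was lower and the median log2 ratio was 0.09. The share higher over all 3397 genes was 4.86%. Pou5f1, the gene of OCT4, had 296 UMIs in members and 258 in matched cells (log2 ratio 0.09, −0.16 to 0.33). It was seen in 67.0% of members and 60.5% of matched cells. Sox2, its partner, lay at 0.34 (−0.03 to 0.72), from 144 UMIs against 105. Dppa4 was the gene past the fold. It had 124 UMIs against 69 (0.73, 0.30 to 1.18) and was seen in 33.0% of members (27.0–39.5%) and 20.2% of matched cells (15.2–25.9%). Without Klf4 in the rule its log2 ratio was 0.27, under 1.5-fold. Dppa2, which binds chromatin with Dppa4, lay at 0.24 (−0.17 to 0.66). Tdgf1, the Nodal co-receptor, lay at 0.19 (−0.04 to 0.42). Utf1, a chromatin factor of pluripotent cells, went the other way. It had 530 UMIs in members and 618 in matched cells, or 776 against 977 CPM (−0.33, −0.50 to −0.16). Per cell its median was 670 against 868 CPM, and highest values were 4149 and 3943 CPM. After thinning every cell to 1000 UMIs before the choice, Utf1 turned to 0.31. Trim28 (0.09), L1td1 (0.12), Rest (0.08) and Gdf3 (−0.19) all had intervals that held 0.

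Few signalling genes were abundant enough to read, and none with 50 or more UMIs had an interval that left out 0. LIF keeps mouse stem cells naive through JAK kinases and STAT3. Of its 4 measured genes none passed 1.5-fold: Pim3 was at a log2 ratio of 0.32 (−0.27 to 0.92), Socs3 at 0.24 (−0.28 to 0.75), Stat3 at 0.14 (−0.66 to 0.95) and Socs2 at −0.16 (−0.48 to 0.17). On the WNT branch only Ctnnb1, the gene of beta-catenin, could be read (−0.16, −0.72 to 0.39). The formative and primed genes mark exit from the naive state. Here Tcf15 had 210 UMIs against 182 (0.10, −0.20 to 0.39) and Dnmt3a 30 against 21 (0.40, −0.45 to 1.28). Fgf5 had 0 UMIs in members and 2 in matched cells. Otx2, a driver of the formative state, had 18 against 13. Of the ERK response genes, Ier2 lay at 0.09 (−0.43 to 0.61). Smad2, a signal carrier of the Nodal pathway, lay at −0.57 (−1.39 to 0.23). Below the minimum of 50 UMIs, 3 genes had intervals that left out 0 and are named after their values were seen. Nodal, a ligand of the TGF-beta family, had 18 UMIs against 3 (2.47, 0.70 to 4.88), Spred2, an inhibitor of ERK signalling, 21 against 6 (1.70, 0.34 to 3.29) and Axin1, a scaffold that degrades beta-catenin, 1 against 9 (−3.28, −8.73 to −0.43). All 10 listed genes of the state resembling the 2-cell embryo had 0 UMIs on both sides.

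Of the BMP and Id genes, Id3 differed most. BMP acts with LIF to hold self-renewal and induces the Id genes, which encode inhibitors of basic helix-loop-helix factors. Of 4 genes with 50 or more UMIs, 2 were at least 1.5-fold lower, none was higher, and the median log2 ratio was −0.61. The share lower was 4.27% over all genes, and 117 of 1349 genes with 50 to 100 UMIs, where Bmp4 falls. Id3 had 51 UMIs in members and 90 in matched cells (log2 ratio −0.93, −1.46 to −0.42). It was seen in 38 members, with at most 3 UMIs in a cell, and in 52 matched cells, with at most 7. Bmp4, the ligand, had 24 against 36 (−0.70, −1.51 to 0.09). At PD100 Bmp4 lay on the other side, at 0.99 (0.11 to 1.93), while the sum over the list was −0.25 (−0.41 to −0.09). Id1 gave 477 of the 560 member UMIs of that PD100 sum, at −0.32 (−0.50 to −0.14). Id2 lay at 0.12 (−1.19 to 1.44) at PD100, and the PD100 interval of Id3 held 0. At PD800 Id2 had 61 against 81 (−0.52, −1.02 to −0.02). Id1, the most abundant, had 562 against 580 (−0.16, −0.33 to 0.01). Id4 with 14 against 8 and Bmpr1a, a BMP receptor, with 7 against 5 lay on the other side. The PD800 sum over the 9 genes gave −0.27 (−0.42 to −0.13), with 562 of its 735 member UMIs from Id1. The sums of the cultures thus do not rest on the same pattern of genes. Against cells with 1 factor UMI in place of 0, Id3 lay at −0.10.

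Levels over all 900 cells, without matching, followed the factor UMIs for some of these genes only. Dppa4 stood at 97.2 CPM in cells with 0 factor UMIs, 123 with 1, 161 with exactly 2 and 160 with 3 or more. Mylpf went from 79.9 through 83.1 and 117 to 150 CPM. Utf1 went from 970 through 909 and 780 to 789 CPM. Id3 had no steady order, at 132, 84.6, 114 and 72.7 CPM. Zfp42 was close to level, at 493, 509, 467 and 519 CPM. Dppa5a had 9405 CPM (9187–9627), then 9774, 9442 and 10121 CPM (9874–10372), with no steady order but a higher level in cells with 3 or more than in cells with 0.

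**Figure D5:**
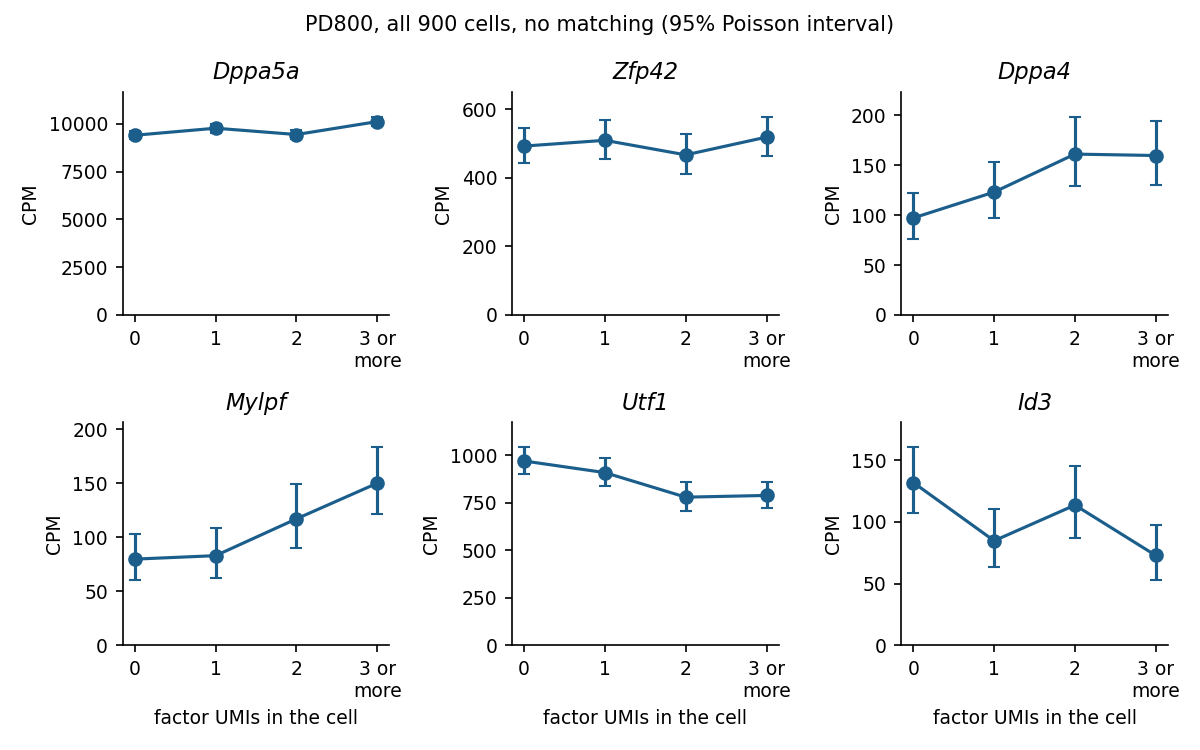
CPM of 6 genes at PD800 in cells with 0, 1, exactly 2 and 3 or more UMIs of the 4 factors (315, 230, 172 and 183 cells, all 900 cells without matching). Points are summed levels with exact Poisson 95% intervals, and every axis starts at 0. Dppa4 runs from 97.2 to 160 CPM and Utf1 from 970 to 789, while Zfp42 stays between 467 and 519.

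Members with Klf4 alone and with Nanog alone had overlapping intervals for most genes read, among them Dppa5a, Pou5f1, Sox2, Spp1 and Hmgn1. Zfp42 and, barely, Utf1 were apart. Zfp42 stood at 577 CPM (483–684) in the 71 cells with Klf4 alone and at 301 CPM (208–420) in the 36 cells with Nanog alone. Utf1 had 720 CPM (615–838) with Klf4 alone and 1017 (840–1221) with Nanog alone, which is close to the 970 of cells with 0. Mylpf had 139 CPM (94.9–196) with Klf4 alone, 221 (143–326) with Nanog alone and 61.3 (16.7–157) with Esrrb alone. Dppa4 stood between 119.5 and 177 CPM in all 4 single-factor groups, above the 97.2 of cells with 0, but the groups with Esrrb or Tbx3 alone rested on 9 and 5 UMIs. The 212 members with 2 or more factors had 504 CPM of Zfp42, 769 of Utf1, 128 of Mylpf and 161 of Dppa4. In these values the cells with Klf4 alone and those with Nanog alone lie on opposite sides of the mixed members for Zfp42 and Utf1. Zfp42 and Utf1 were picked after their values were seen.

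The cell cycle and metabolism lists had medians close to 0 between members and matched cells. Over all 3397 genes, 4.86% were at least 1.5-fold higher and 4.27% at least 1.5-fold lower. The few past-fold genes of these lists are named as values and not read as results about the lists. S phase genes had a median log2 ratio of −0.02 (0 of 17 higher, 1 lower) and G2/M genes 0.05 (1 of 20 higher, 1 lower). Past the fold were Chaf1b, a chromatin assembly subunit, at −0.61 (−1.20 to −0.03), and Bub1, a spindle checkpoint kinase, at 0.96 (0.18 to 1.78). The lower G2/M gene was Mki67, at −0.59 (−1.34 to 0.15). Under the fold, Cenpf (0.47, 0.12 to 0.81), Aurka (0.38, 0.04 to 0.72) and Aurkb (0.58, 0.02 to 1.16) were higher. Mcm6 (−0.57, −0.99 to −0.15) and Ccnb2 (−0.35, −0.70 to −9.4e-05) were lower, and the intervals of all these under-fold genes left out 0. Glycolysis genes had a median of 0.03, with Hk2, a hexokinase, at 0.62 (0.04 to 1.21). Of 83 nuclear respiratory chain genes 3 were higher, none lower, and the median was −0.004. The 3 were Ndufaf2 (0.71) and Ndufaf6 (0.83), assembly factors of complex I, and Sdhc (0.78), a complex II subunit. Cytosolic ribosomal protein genes had a median of −0.01 over 81 genes with none past the fold.

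Chromatin and telomere genes were close to level too. Of 11 telomere and ALT-related genes none was past 1.5-fold and the median log2 ratio was −0.03. Under the fold, Rpa2 had an interval that left out 0 (−0.46, −0.88 to −0.04). Among the 9 Polycomb subunits 1 was higher and 1 lower, with a median of 0.02. Over all 3397 genes 4.86% were higher and 4.27% lower. The 3 measured DNA methylation genes had a median of 0.02. Hmgn1, the nucleosome-binding protein followed in the study, had 1855 UMIs in members and 1690 in matched cells, or 2715 against 2671 CPM (log2 ratio 0.02, −0.07 to 0.12). Of 5 nuclear retained RNAs 1 was lower, Kcnq1ot1, the antisense RNA of an imprinted domain (−0.93, −1.77 to −0.12). Whether the counting used strand is not given in the sources used here, so its reads cannot be told apart from those of Kcnq1. Heat shock and chaperone genes had a median of 0.04 and genes of the p53 pathway −0.03. In the p53 list Trp53 was under the fold, with an interval that left out 0 (0.43, 0.03 to 0.84).

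The most different single genes were mostly scarce and of mixed function. By the interval end nearer to 0, the 12 highest in members were Fyttd1, Lgals1, Sltm, Nme6, Phf23, Fermt2, Atp6v1c1, Brd7, Urah, Usp15, Dnajc11 and Alg13. Fyttd1, an mRNA export adaptor, had 50 UMIs against 17 (log2 ratio 1.45, 0.63 to 2.33). Lgals1, a galectin, had 103 against 45 (1.08, 0.56 to 1.62) and was seen in 67 members and 31 matched cells. Against cells with 1 factor UMI, Lgals1 lay at 0.08 and Fyttd1 at −0.13. Fermt2, an activator of integrins, lay at 1.12 (0.44 to 1.84), and Brd7, a bromodomain subunit of a chromatin remodeller, at 1.17 (0.41 to 1.98). The 12 lowest were Taf11, Osbpl7, Thap1, Eif1b, 1810064F22Rik, Id3, Rfng, Erp29, Pqbp1, Gm37733, Exosc3 and Trub1. Taf11, a subunit of the general factor TFIID, had 18 UMIs against 50 (−1.58, −2.45 to −0.78). For Osbpl7, a lipid-binding protein, 51 against 112 UMIs gave −1.25 (−1.75 to −0.76), but 1 matched cell alone held 20 of the 112. Erp29, a chaperone of the endoplasmic reticulum, lay at −0.84 (−1.30 to −0.40). Genes at both ends were chosen for their size, so these values are a description.

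Markers of other cell types were scarce on both sides. The 17 extraembryonic endoderm markers summed to 113 UMIs in members and 88 in matched cells (log2 ratio of sums 0.25, −0.17 to 0.67). At least 1 of them was seen in 36.5% of members and 24.5% of matched cells. The sides held 684033 and 632723 UMIs in all, and the part of depth was not tested. Of the 17, 6 were at 0 on both sides: Gata4, Gata6, Sox17, Foxa2, Hnf4a and Nostrin. Neural markers summed to 63 against 42 (0.47, −0.11 to 1.07), trophoblast markers to 15 against 11, germ cell markers to 22 against 18, fibroblast markers to 6 against 11 and mesoderm markers to 4 against 3. Embryonic stem cell markers had a median of 0.18 over 8 genes. Stem cell markers were thus present on both sides. The part of the endoderm markers in the differences above was not tested.

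Members were spread over the whole culture. Louvain clustering of both libraries without the 4 factors put the PD800 cells into 2 clusters. Cluster 2, led by 2310058D17Rik, Ppip5k1, Xaf1 and Irak1, held 115 of the 233 matched members (49.4%, 42.8–56.0%) and 116 of the 233 matched cells (49.8%, 43.2–56.4%). Cluster 3, led by Hs2st1, Kit and Decr1, held the rest. No cluster was made up of members.

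The same rule at PD100 set 86 cells against 86 with 0. Here Zfp42 had 231 UMIs against 128 (log2 ratio 0.85, 0.53 to 1.17), Klf2 92 against 57 (0.68, 0.19 to 1.19) and Jam2 32 against 14 (1.19, 0.24 to 2.21). At PD800 the same genes lay at 0.18, 0.42 and −0.40. The rule chose 10.6% of cells at PD100 and 39.4% at PD800. In all cells kept, the 4 factors stood at 195 CPM at PD100 and 507 CPM at PD800. Members of the cultures are thus unlike groups, and their ratios are not like for like. Dppa5a was at 0.17 (0.08 to 0.26) at PD100 and 0.13 at PD800. Summed over the naive list the log2 ratio was 0.23 (0.15 to 0.31) at PD100 and 0.13 (0.08 to 0.17) at PD800. Dppa5a gave most of these sums, with 2129 of 2881 member UMIs at PD100 and 6884 of 8728 at PD800. The sums therefore say little about the other listed genes. Utf1 lay at 0.09 (−0.18 to 0.37) at PD100, Id3 at −0.24 (−1.02 to 0.53) and Sox2 at −0.68 (−1.34 to −0.05). Dppa4 was above 0 in both, with 0.42 (−0.12 to 0.97) at PD100. Of the 12 genes highest at PD800, 1 was above 0 at PD100. There 48.2% of the 1712 genes with 50 or more UMIs were above 0, but several of the 12 had fewer UMIs. Fyttd1 had 12 UMIs against 9 at PD100 and Usp15 10 against 10. The PD100 intervals of all the 12 but Lgals1, Urah and Dnajc11 held 0. Several of the 12 lay at about 0 there, such as Usp15 (−0.01) and Phf23 (−0.06). Lgals1 was at −0.84 (−1.22 to −0.46) at PD100. It is a leading gene of a PD100 cluster of 310 cells, which held 30.2% of the matched PD100 members and 34.9% of their matched cells, and the part of that cluster was not tested. Of the 12 lowest at PD800, 6 were below 0 at PD100 and 6 above. The difference between the cultures was not tested.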

How the data were processed

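Single-cell RNA-seq of 2 libraries was used, 1 at PD100 and 1 at PD800, grouped by the labels' time points. The deposited tables hold raw UMI counts per barcode and gene, which the authors made from inDrops reads mapped to a GRCm38 transcriptome. The annotation release is not given in the sources used here. Total counts were 2073033 at PD100 and 3039344 at PD800, so scarce genes are imprecise. The members and gene lists were chosen with earlier results of these data known.

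Barcodes needed 1000 UMIs and at most 20% mitochondrial UMIs. UMIs were summed over the cells of a side and divided by its UMIs outside the 4 factors (CPM). Members were matched to cells with 0 on total UMIs, deepest first, within 10%. Ratios got exact conditional intervals, levels exact Poisson and shares exact binomial intervals. Genes needed 50 UMIs. Medians, counts and 1.5-fold shares describe lists. Named genes were the 12 highest and 12 lowest by the nearer interval end, the measured genes of the pluripotency and signalling lists, Hmgn1, Terc and, from every other list, genes past 1.5-fold whose interval left out 0. A gene that this rule names is not reported here. Other genes are named for context, having been chosen after their values were seen. Thinning used random seed 1, Scrublet an expected rate of 5%, and Louvain clustering 80 components, 15 neighbours and resolution 1. The summing and matching were tested on simulated Poisson counts, with known changes planted only in genes with 200 or more UMIs. That test did not cover changes in scarcer genes or counts more uneven than Poisson. Python 3.11.15, NumPy 2.4.6, SciPy 1.17.1, pandas 2.3.3, Scanpy 1.11.5 and python-igraph 0.11.9 were used. Alternatives changed the matching, filters, member rule, reference cells, scaling and doublets.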

Additional observations from a re-analysis of the deposited data

Results flagged for a closer look

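The reading of each factor in cells chosen by the other 3 had opposite signs in the cultures for 3 of the 4 factors. The PD800 log2 ratio minus the PD100 log2 ratio was −1.25 for Klf4, −1.88 for Esrrb and −1.44 for Tbx3. The PD800 signs were not stable. Klf4 lay at −0.01 and at 0.04 with the deeper cells alone, and thinning to 1000 UMIs gave 0.04 for Esrrb and 0.44 for Tbx3, the sign of PD100. With 1 library per culture the difference was not tested.

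The 4 factors were also present in the 766 PD800 barcodes that the filter left out. These held 172 factor UMIs, or 375 CPM (321–436), against 507 CPM (480–535) in the cells kept. The 477 barcodes left out at PD100 held 89.1 CPM (55.9–135), against 195 CPM (176–217) in the cells kept.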

How the results depend on the processing

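The count of genes 1.5-fold higher, 165 of 3397, became 386 of 4750 with reference cells weighted in 10 depth bins. It was 606 of 5814 with a minimum of 20 UMIs, 3 of 1144 with 200 and 2361 of 11791 with no minimum. The count of lower genes, 145, became 322, 565, 1 and 2240 of the same totals, and 233 of 2081 after thinning. More scarce genes enter when the minimum falls. Why the counts moved with the bins and with thinning was not tested. Thinning left 93 members and gave log2 ratios of −0.71 for Klf4 and 0.44 for Tbx3 in cells chosen by the other factors.

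Of 67 named genes, 27 kept their sign under all 18 alternatives. At least 39 left their counting interval under 1 or more alternatives. Klf2, Dppa4, Dppa5a, Mylpf and Id3 kept their sign, but Dppa4 fell to 0.27, Dppa5a to 0.03 and Id3 to −0.10 at their smallest. Utf1 reached 0.31 after thinning. Among named genes past 1.5-fold, signs turned against cells with 1 factor UMI for Fyttd1 (−0.13), Phf23 (−0.033), Atp6v1c1 (−0.094), Urah (−0.11), Thap1 (0.27), Erp29 (0.066), Chaf1b (0.32) and Sdhc (−0.15). After thinning they turned for Phf23 (−0.00051), Rfng (0.25), Erp29 (0.14), Bub1 (−0.16) and Sdhc (−0.74), and without Klf4 in the rule for Phf23 (−0.12) and Urah (−0.23). Named genes under 1.5-fold turned too, under 1 or more alternatives. At their lowest Zfp42 lay at −0.11, Pou5f1 at −0.12, Sox2 at −0.13, Klf5 at −0.18 and Dppa2 at −0.40. Gdf3 and Nr0b1 rose to 0.26 and 0.40 at their highest. The cause was not tested. The median of the other naive genes stayed between 0.00085 and 0.17. Matching within clusters was added after seeing the data and gave 0.05. No paired analysis was possible because each time point is 1 library.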

Other observations

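Lefty1 and Lefty2, feedback inhibitors of Nodal signalling, had 0 UMIs in members, against 2 and 4 in matched cells. Genes of mitochondrial DNA, summed, were at a log2 ratio of 0.05 (0.02 to 0.07). A list of 4 transcripts that carry B2 repeats, selected as raised in an earlier analysis of these libraries, summed to −0.10 (−0.14 to −0.06). Both sums were small beside the 1.5-fold used for single genes, and neither has a replicate.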
